A study of Mus musculus with 4 samples.

Results

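The miR-17-92, miR-106a-363 and miR-106b-25 clusters were described here through their mature miRNA that do not carry the seed of miR-17-5p, together with the related mmu-miR-92b-3p. The set was given by name and holds 9 of the 1966 mature miRNA listed for each library: mmu-miR-17-3p, mmu-miR-18a-5p, mmu-miR-18a-3p, mmu-miR-19a-3p, mmu-miR-19b-3p, mmu-miR-92a-3p, mmu-miR-92b-3p, mmu-miR-25-3p and mmu-miR-363-3p. All 9 had reads in every library and passed the filter on low counts that left 496 miRNA for testing. Small RNA was sequenced from primary cortical neurons of WT mice and of transgenic Alzheimer's disease model (TgAD) mice, with 2 libraries per genotype. Neurons were taken from cortex at stage E16.5 per the labels and kept for 5 days in vitro in serum-free medium without further treatment. TgAD mice (B6C3 background) carry 2 transgenes linked to familial Alzheimer's disease, 1 of them a Swedish-mutant APP of mixed mouse and human sequence. The other encodes a mutant human presenilin 1 without exon 9. Elements of the mouse prion promoter drive both, with most of the expression in brain neurons. Per the study's methods each embryo was cultured separately and genotyped afterwards. The comparison asked which miRNA are aberrantly expressed in neurons that carry these transgenes.

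A miRNA cluster is a set of hairpins cut from one primary transcript, and each hairpin can yield a mature miRNA from its 5′ arm (5p) and another from its 3′ arm (3p). Usually one arm, the guide, is kept in Argonaute and the other is degraded, and the guide finds its target mRNA through its seed, bases 2 to 8. The miR-17-92 cluster is known for promoting proliferation and survival in many cell types and for supporting the expansion of neural progenitors in the embryonic cortex. Its miR-92 member is known to repress Tbr2 (Eomes), a transcription factor of intermediate progenitors.

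The mature sequences are shown because the seeds, the near-identity of some members and their GC content all bear on the values that follow. All 9 were matched by name to RefSeq on build GRCm38.p6. They are written 5′ to 3′ with the seed in capitals, and they fall into 5 seed groups. The first group is the miR-18a guide, with its seed AAGGUGC:
mmu-miR-18a-5p: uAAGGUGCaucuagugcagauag
The 2 members of the miR-19 group share the seed GUGCAAA:
mmu-miR-19a-3p: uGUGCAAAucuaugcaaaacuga
mmu-miR-19b-3p: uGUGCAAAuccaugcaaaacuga
The 4 members of the miR-25/92 group share the seed AUUGCAC:
mmu-miR-92a-3p: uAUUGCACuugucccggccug
mmu-miR-92b-3p: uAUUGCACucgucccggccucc
mmu-miR-25-3p: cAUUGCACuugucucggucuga
mmu-miR-363-3p: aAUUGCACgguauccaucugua
The other 2 come from the arms opposite miR-18a-5p and miR-17-5p, and each has a seed that no other of the 9 has:
mmu-miR-18a-3p: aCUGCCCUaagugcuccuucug
mmu-miR-17-3p: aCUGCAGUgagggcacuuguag

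Counted from the 5′ end, miR-19a-3p and miR-19b-3p differ by the single change U11C over 23 bases. Between miR-92a-3p and miR-92b-3p the changes are U10C and G21C, so that 19 of 21 compared bases are identical. miR-25-3p shares 18 of 21 bases with miR-92a-3p (U1C, C14U and C18U), whereas miR-363-3p shares 10 of 21, mostly within the seed.

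Both arms of miR-18a come from a hairpin of 96 nucleotides (Mir18, chromosome 14, 115043851 to 115043946, plus strand, GRCm38.p6), printed here because its arms moved in opposite directions. The mature arms are in capitals, miR-18a-5p at positions 17 to 39 and miR-18a-3p at positions 58 to 79:
Mir18: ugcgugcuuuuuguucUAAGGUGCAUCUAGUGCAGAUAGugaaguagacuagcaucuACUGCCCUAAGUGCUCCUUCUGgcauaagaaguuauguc

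The hairpins Mir17 (115043671 to 115043754), Mir18, Mir19a (115044000 to 115044081), Mir19b-1 (115044305 to 115044391) and Mir92-1 (115044427 to 115044506) lie in this order on the plus strand of chromosome 14. GENCODE M21, at the same coordinates, places all 5 in an exon of the long non-coding RNA Mir17hg (115042879 to 115046727). Mir363 (52741693 to 52741767), Mir92-2 (52741838 to 52741928) and Mir19b-2 (52741983 to 52742066) lie on the minus strand of chromosome X outside any annotated host gene. Mir25 (138165321 to 138165404, minus strand) lies on chromosome 5 within Mcm7, which encodes a subunit of the replicative helicase. Of the 3 Mcm7 transcripts that span it, 2 place it in an intron and 1 in an exon. Mir92b (89227116 to 89227198, minus strand, chromosome 3) has no annotated host.

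For 2 members the mature sequence lies in more than 1 hairpin. miR-19b-3p is encoded by both Mir19b-1 and Mir19b-2, whose sequences are identical over 25 bases, and miR-92a-3p by both Mir92-1 and Mir92-2, identical over 22 bases. Their reads therefore cannot be given to the chromosome 14 or the X cluster. How reads with several placements were counted is not given in the sources used here. miR-9-5p, a neuronal miRNA whose sequence lies in 3 hairpins, was listed at 0 reads in all 4 libraries, while miR-128-3p, in 2 hairpins, had between 43009 and 240174 reads. Of the 64 listed miRNA found exactly in more than 1 hairpin, 38 (59.4%) had 0 reads in all libraries, against 600 of 1514 (39.6%) found in 1 hairpin. The levels of miR-19b-3p and miR-92a-3p are thus those of the reads that were assigned.

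The libraries held 2070204 and 2752599 (WT) and 2758525 and 4811010 (TgAD) reads on miRNA. miR-99a-5p took 15.8% and 16.7% of them in WT and 27.0% and 31.8% in TgAD. Levels are given as CPM, edgeR's counts relative to a common library size with TMM scaling, and a floor of 3 reads corresponds to between 0.746 and 1.28 CPM (counting error only). The neuronal marker list (5 miRNA) summed to 19960 and 34270 CPM in WT and 85280 and 60380 CPM in TgAD, nearly all of it miR-128-3p. Of this list miR-128-3p rose, a call lost without the library labelled TgAD 1 (log2 fold change 1.12, adjusted p = 0.119), miR-138-5p and miR-129-5p did not pass the test, miR-124-3p had between 1 and 7 reads and miR-9-5p was at 0. Markers of oligodendrocytes (3 of 3) were at 0, those of white blood cells summed to between 10.6 and 16.2 CPM, and vascular markers to between 718 and 901 CPM with miR-126a-3p and miR-126a-5p at 0. Erythroid markers summed to 1310 and 1331 CPM in WT and 957 and 646 CPM in TgAD, nearly all of it miR-451a, which fell (also without the library labelled TgAD 1), with miR-486a-5p at 0. The part of these shifts in the results was not tested.

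A second deposited table, of normalized values, goes against the sample labels. Whole reads could be recovered from it, and its column named for the first WT library equalled the counts of the library labelled TgAD 1 for 674 of 674 listed miRNA. The column named for the second WT library equalled WT 1 for 674 of 674, and the one named for the first TgAD library equalled TgAD 2 for 674 of 674. The last column equalled none of the 4 count tables at more than 4.45% of miRNA. Libraries are named here by their labels. With these labels, DESeq2 on the count tables called 151 of 693 miRNA at the paper's wider cutoffs, 64 higher and 87 lower in TgAD. At its stringent cutoffs 67 were called. The paper reports the same numbers, so its published counts were reproduced with the labels of the count tables. Which genotype the library labelled TgAD 1 had was not tested. Because the 2 deposits disagree on it, the fold change and the tested arm ratio of each member are also given without that library. The GC-corrected fits were not run without that library.

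The 9 members together took 0.840% and 0.823% of the reads in WT and 0.855% and 0.841% in TgAD. These shares were close and did not overlap between the genotypes. Since a read spans the whole of a mature miRNA of 21 to 23 nucleotides, no scaling to length was applied. In every library miR-25-3p was the most abundant, followed by miR-92a-3p, miR-92b-3p and miR-18a-5p. The first 3 made up between 89.0% and 90.0% of the members' reads in WT and between 93.0% and 96.1% in TgAD. Below them, miR-19a-3p and miR-17-3p exchanged places in TgAD 2, and the levels of miR-18a-5p and miR-19a-3p overlapped among the TgAD libraries but not among the WT libraries. miR-363-3p, miR-19b-3p and miR-18a-3p were the lowest, and miR-18a-3p moved from the last place in both WT libraries to above miR-19b-3p in both TgAD libraries.

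**Figure D1:**
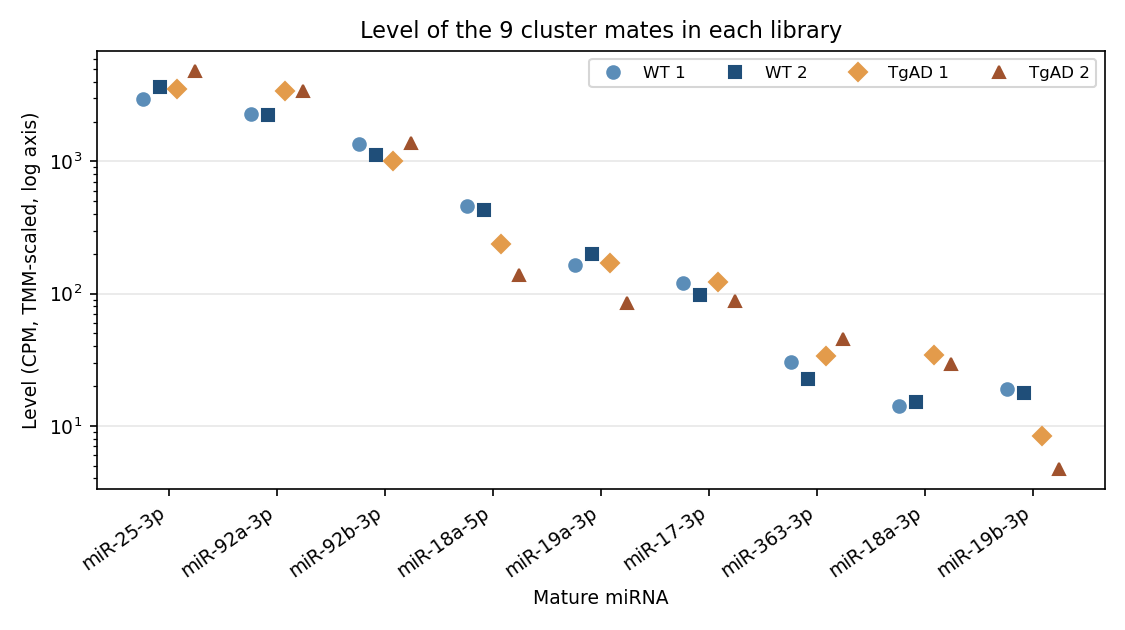
Level of each of the 9 miRNA in CPM after TMM scaling (log axis), with 1 point for each library and no averaging. Both TgAD points lie below both WT points for miR-18a-5p and miR-19b-3p and above them for miR-18a-3p, miR-92a-3p and miR-363-3p.

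Of the 9 members, 4 passed both cutoffs (a log2 fold change beyond 0.6 either way, with adjusted p below 0.1 by edgeR's quasi-likelihood test), against 33.1% of the 496 tested miRNA. miR-18a-3p and miR-92a-3p were higher in TgAD neurons (2 of 9, against 15.7% of tested miRNA), and miR-18a-5p and miR-19b-3p were lower (2 of 9, against 17.3%). With the total counts as library size, 43 tested miRNA were higher and 122 lower, in place of 78 and 86, and the median over all tested miRNA moved from 0.03 to -0.23 on the log2 scale. No member passed the stringent cutoffs of 1 and 0.01, which 4.44% of tested miRNA did. An unadjusted p under 0.05 was reached by 4 of the 9 members, beside 183 of the 496 tested miRNA. DESeq2 called 1 member at the stringent cutoffs, beside 9.67% of its 693 miRNA. In 5 of the 9 the WT and TgAD libraries did not overlap, against 63.1% of tested miRNA. The members' median log2 fold change was -0.04, beside 0.03 for all tested miRNA. Without the library labelled TgAD 1, 3 members passed, miR-18a-5p, miR-19a-3p and miR-19b-3p, all lower, where 26.7% of 536 tested miRNA passed, 54 higher and 89 lower. In cultures sequenced in bulk, fewer cells of a type and less RNA per cell cannot be told apart.

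**Figure D2:**
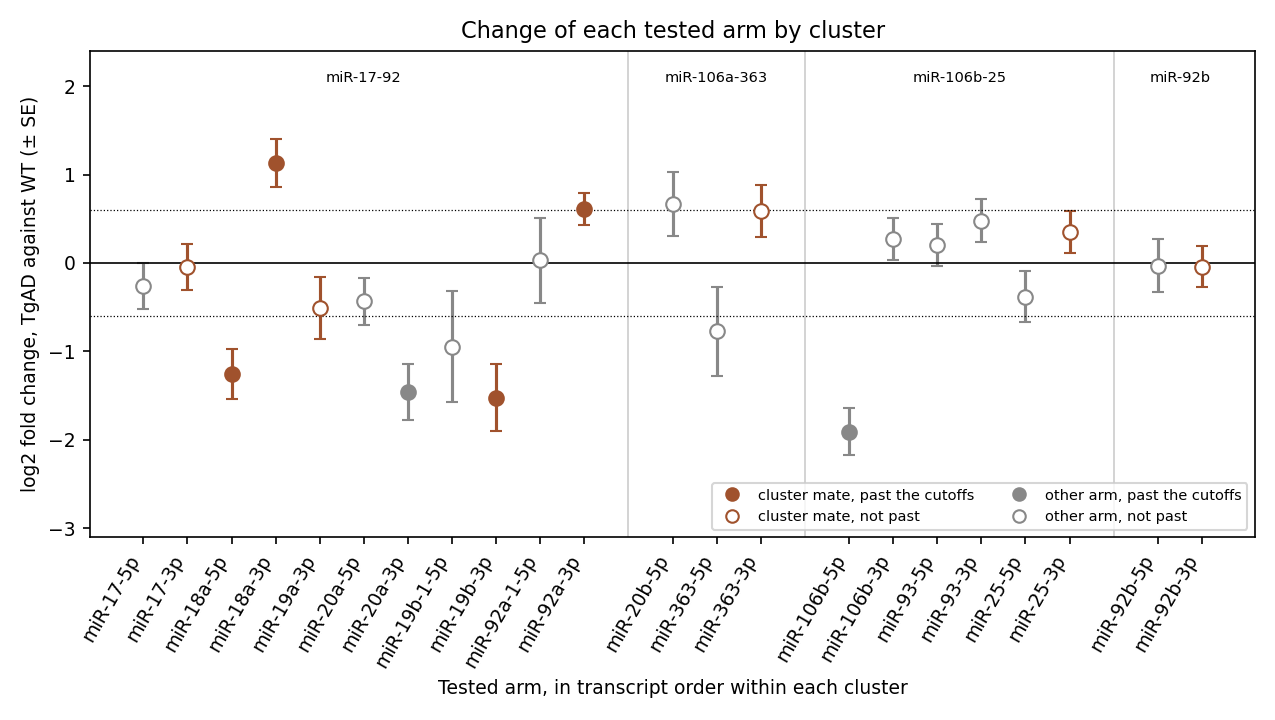
log2 fold change of TgAD against WT with its standard error for each tested arm of the clusters and of miR-92b, in transcript order, with the 0.6 cutoffs dotted. Filled points passed both cutoffs, and arms encoded on 2 chromosomes (miR-19b-3p and miR-92a-3p) are drawn once, with miR-17-92. Called arms lie on both sides of 0 within miR-17-92.

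miR-18a-5p, the guide of the miR-18a hairpin, was read 1089 and 1251 times in WT, and 647 and 556 times in TgAD neurons. On the CPM scale this was 464 and 430 in WT and 236 and 138 in TgAD, so that both TgAD libraries lay below both WT libraries and differed from each other more than the WT libraries did. Its level fell 2.39-fold, from 447 ± 23.9 to 187 ± 69.0 CPM (SD, n = 2), with a log2 fold change of -1.26 (SE 0.286, adjusted p = 0.0276, edgeR's quasi-likelihood test). Leaving out any 1 library kept this call, at -1.79 without the library labelled TgAD 1 (adjusted p = 0.0176). The rank of miR-18a-5p among all listed miRNA went from 125 and 130 in WT to 159 and 196 in TgAD. By the distance of log2 CPM centred on their own mean over the 4 libraries, the 3 miRNA of 495 with the most similar pattern were miR-544-5p, miR-670-3p and the cluster mate miR-19b-3p (distances 0.142, 0.144 and 0.155).

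miR-18a-3p, from the other arm of the same hairpin, went the other way. It had 33 and 44 reads in WT and 95 and 119 in TgAD, or 14.1 and 15.1 against 34.6 and 29.6 CPM. Both TgAD libraries were above both WT libraries. The level rose 2.19-fold, from 14.6 ± 0.754 to 32.1 ± 3.56 CPM (SD, n = 2), with a log2 fold change of 1.13 (SE 0.272, adjusted p = 0.0308, edgeR's quasi-likelihood test). This call was lost without WT 1 (1.10, adjusted p = 0.121), without WT 2 (1.17, adjusted p = 0.101) and without the library labelled TgAD 1 (0.92, adjusted p = 0.106), the direction being the same in each.

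Both arms are cut from 1 hairpin, and their ratio, like any ratio of reads within a library, does not depend on how libraries are scaled. For miR-18a the libraries held 33.0 and 28.4 reads of the 5p arm per read of the 3p arm in WT, and 6.81 and 4.67 in TgAD. The 5p arm thus stayed the more abundant in all 4 libraries, at a lower ratio in both TgAD libraries. In a fit over the 138 hairpins with both arms tested, log2(5p/3p) of miR-18a fell by 2.44 (SE 0.385, adjusted p = 0.00782, edgeR's quasi-likelihood test), a 5.42-fold shift. This change was the fifth by size of the 138. Changes of arm ratio were common in these libraries, with 40.6% of hairpins past the same cutoffs, 33 toward less 5p and 23 toward more, and the median size of change was 0.78 on the log2 scale. The combination seen for miR-18a, with 1 arm called higher and the other lower, occurred in 6 of the 138 hairpins (4.35%). The shift was -2.71 without the library labelled TgAD 1 (adjusted p = 3.847e-05) and kept its call when each other library was left out.

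**Figure D3:**
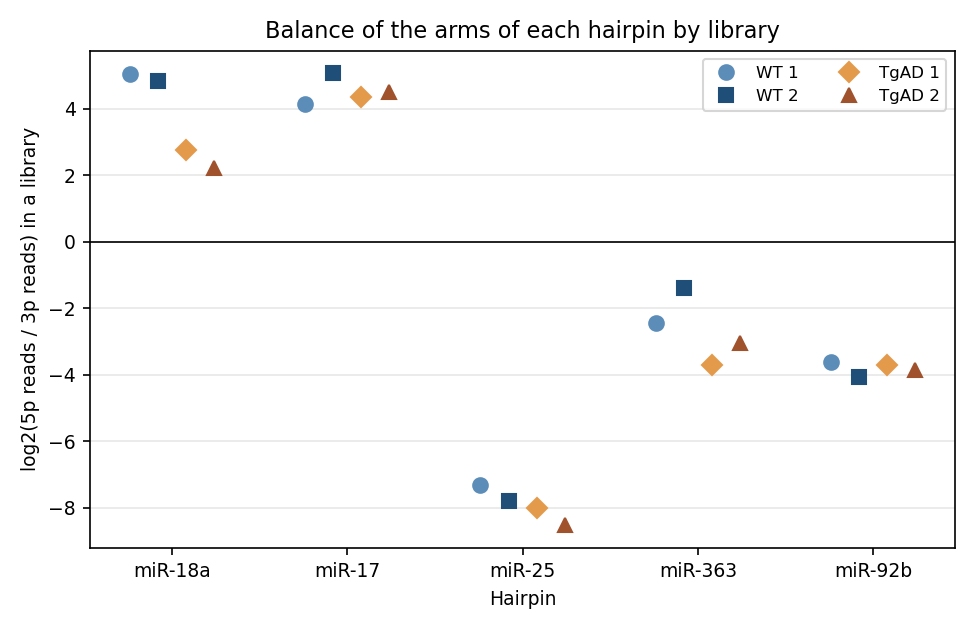
log2 of 5p reads over 3p reads within each library for the 5 hairpins of the members with both arms tested; values above 0 mean more 5p than 3p. The miR-18a points fall from 5.04 and 4.83 in WT to 2.77 and 2.22 in TgAD, and the miR-17 and miR-92b points of the genotypes overlap.

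Of the other hairpins, miR-363 passed the cutoffs for its arm ratio. It gave 5.46 and 2.64 reads of the 3p guide per 5p read in WT and 13.1 and 8.32 in TgAD, a change of log2(5p/3p) of -1.42 (SE 0.501, adjusted p = 0.0691). Its 5p arm had only between 7 and 25 reads, and the call was lost without WT 2 (-0.86), TgAD 1 (-1.18) or TgAD 2 (-1.83). For miR-25, the ratio of 3p to 5p reads was 158 and 221 in WT and 256 and 369 in TgAD, without overlap, and the change of log2(5p/3p) of -0.72 did not pass (SE 0.330, adjusted p = 0.129). Without the library labelled TgAD 1 it did (-0.97, adjusted p = 0.0357). The arm ratio of miR-92b changed by 0.05 (SE 0.279, adjusted p = 0.899) and that of miR-17 by -0.18 (SE 0.336, adjusted p = 0.711). Without the library labelled TgAD 1 these changes were -0.03 for miR-92b and -0.10 for miR-17.

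The miR-19 pair are guides from the 3p arms of their hairpins. For miR-19b-3p, WT gave 45 and 52 reads and TgAD 23 and 19, or 19.2 and 17.9 against 8.38 and 4.73 CPM, with no overlap. It fell 2.88-fold, a log2 fold change of -1.52 (SE 0.378, adjusted p = 0.0336, edgeR's quasi-likelihood test). The call was lost without TgAD 2 (-1.11, adjusted p = 0.111) and held without the library labelled TgAD 1 (-2.06, adjusted p = 0.0364).

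miR-19a-3p, which differs from it by 1 base outside the seed, was read 385 and 581 times in WT and 470 and 342 times in TgAD. These were 164 and 200 CPM in WT and 171 and 85.0 CPM in TgAD, so that the genotypes overlapped through TgAD 1. Its log2 fold change of -0.51 did not pass (SE 0.351, 2 SE interval -1.21 to 0.19, adjusted p = 0.340). Without the library labelled TgAD 1 it passed at -1.19 (adjusted p = 0.0419). In assigned reads, miR-19a-3p outnumbered miR-19b-3p, whose sequence lies in 2 hairpins, 8.56 and 11.2 times in WT and 20.4 and 18 times in TgAD. These ratios did not overlap, but an exact permutation test of 2 against 2 libraries gave a two-sided p of 0.333, the smallest it can give.

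The reads of the shared miR-19 seed, summed over both, were 183 and 217 CPM in WT and 180 and 89.8 CPM in TgAD. For the miR-18 seed, where miR-18b-5p adds between 2 and 6 reads a library, the sums were 466 and 430 CPM in WT and 237 and 140 CPM in TgAD. The sums followed the more abundant member of each seed, which held at least 89.5% of the assigned reads of its seed in every library.

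miR-92a-3p, the last guide of the miR-17-92 transcript, was read 5328 and 6541 times in WT and 9432 and 13809 times in TgAD. The levels were 2268 and 2246 CPM in WT and 3437 and 3434 CPM in TgAD, nearly equal within each genotype and apart between them. The rise of 1.52-fold gave a log2 fold change of 0.61 (SE 0.180, adjusted p = 0.0530, edgeR's quasi-likelihood test), just past the 0.6 cutoff. It did not pass without WT 1 (0.63, adjusted p = 0.194), WT 2 (0.58, adjusted p = 0.223) or the library labelled TgAD 1 (0.51, adjusted p = 0.121), and with total counts as library size, where the median of all tested miRNA was -0.23, it was 0.35 (adjusted p = 0.365).

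Set against this neighbour on the same transcript, miR-18a-5p gave 0.204 and 0.191 reads per miR-92a-3p read in WT and 0.0686 and 0.0403 in TgAD. Against miR-17-3p it gave 3.86 and 4.44 reads in WT and 1.93 and 1.57 in TgAD. Neither ratio overlapped between the genotypes (two-sided exact permutation p = 0.333 for each, the smallest possible). Reads of miR-92a-3p can also come from the X cluster, so the first ratio is not confined to 1 transcript. The 5p arm of the X hairpin, miR-92a-2-5p, had 0 reads in every library. That of the chromosome 14 hairpin, miR-92a-1-5p, had between 21 and 54. The origin of the miR-92a-3p reads was not tested.

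The other members with the miR-25/92 seed did not pass the cutoffs. miR-25-3p, the Mcm7-hosted guide, was read 6970 and 10611 times in WT and 9717 and 19545 times in TgAD, or 2967 and 3644 against 3541 and 4860 CPM. The genotypes overlapped, and the log2 fold change was 0.35 (SE 0.237, 2 SE interval -0.13 to 0.82, adjusted p = 0.340). miR-363-3p, the last guide of the X cluster, was read 71 and 66 times in WT and 92 and 183 times in TgAD, or 30.2 and 22.7 against 33.5 and 45.5 CPM. Its libraries did not overlap, and the log2 fold change of 0.59 (SE 0.296, adjusted p = 0.209) was just under the 0.6 cutoff. miR-92b-3p, which comes from its own locus and is a known repressor of Tbr2, was read 3184 and 3234 times in WT and 2781 and 5548 times in TgAD, or 1355 and 1111 against 1014 and 1380 CPM. These overlapped, with a log2 fold change of -0.04 (SE 0.230, 2 SE interval -0.50 to 0.42, adjusted p = 0.916).

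Without the library labelled TgAD 1, the log2 fold changes of miR-25-3p and miR-363-3p were 0.46 and 0.69, and that of miR-92b-3p changed sign to 0.07, with none called. In assigned reads, miR-92a-3p outnumbered the near-identical miR-92b-3p 1.67 and 2.02 times in WT and 3.39 and 2.49 times in TgAD. These ratios did not overlap (two-sided exact permutation p = 0.333, the smallest possible). miR-25-3p outnumbered miR-92a-3p between 1.03 and 1.62 times over the 4 libraries, with the genotypes overlapping. Over the 6 listed miRNA with this seed, which include miR-32-5p and miR-367-3p, the sum was 6839 and 7177 CPM in WT and 8277 and 9892 CPM in TgAD.

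miR-17-3p, from the arm opposite miR-17-5p, had 282 reads in each WT library and 336 and 355 in the TgAD libraries. At 120 and 96.9 CPM in WT and 123 and 88.3 CPM in TgAD the genotypes overlapped, and the log2 fold change was -0.04 (SE 0.259, 2 SE interval -0.56 to 0.48, adjusted p = 0.925). Without the library labelled TgAD 1 it was -0.39 (adjusted p = 0.342).

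The remaining arms of the same hairpins and clusters were read from short lists. Over all 496 tested miRNA, 33.1% passed the cutoffs and 183 had an unadjusted p under 0.05 in edgeR's quasi-likelihood test. DESeq2 called 151 of 693. Among the arms opposite the members, 5 of 8 were tested and 0 passed the cutoffs in edgeR's quasi-likelihood test (0 also at an unadjusted p under 0.05, and 0 by DESeq2), with log2 fold changes from -0.95 (miR-19b-1-5p, adjusted p = 0.324) to 0.03 (miR-92a-1-5p). Among the guides with the miR-17 seed, 5 of 6 were tested and 1 passed. This was miR-106b-5p, with 7260 and 11590 reads in WT and 3063 and 3072 in TgAD (log2 fold change -1.91, SE 0.265, adjusted p = 0.00934, and -2.31 without the library labelled TgAD 1). It shares its transcript with miR-25-3p, and there were 0.960 and 0.916 reads of miR-25-3p per read of miR-106b-5p in WT and 3.17 and 6.36 in TgAD. The other tested guides with the miR-17 seed lay between -0.43 and 0.67. Of the 3 tested arms opposite these guides, miR-20a-3p fell (-1.46, SE 0.317, adjusted p = 0.0266, and -1.88 without that library) and the other 2 did not pass. Among the listed seed relatives that are not members, only miR-32-5p was tested, at 0.19 (adjusted p = 0.667).

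The GC content of the mature sequence moved with the change between genotypes. Over the 441 tested miRNA with a RefSeq sequence, Pearson's r of the log2 fold change with GC content was 0.346 and Spearman's rho 0.420, a description over miRNA that share the same 4 libraries. Over 474 miRNA tested without the library labelled TgAD 1 these were 0.306 and 0.363. The median log2 fold change was -0.76 for the 75 miRNA under 40% GC and 0.25 for the 113 at 55% or more. Of the called members, the lower ones had 39.1% (miR-19b-3p) and 43.5% GC (miR-18a-5p), and the higher ones 54.5% (miR-18a-3p) and 57.1% (miR-92a-3p). The members not called did not all follow this order. They stood at -0.51 (miR-19a-3p, 34.8% GC), 0.59 (miR-363-3p, 40.9%), 0.35 (miR-25-3p, 50%), -0.04 (miR-17-3p, 54.5%) and -0.04 (miR-92b-3p, 63.6%). Over 119 hairpins, the change of arm ratio and the difference in GC content between the arms had a Pearson's r of 0.422.

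After each library was corrected for GC content by a local regression, miR-18a-5p stood at -0.99 (adjusted p = 0.0316), miR-18a-3p at 0.83 (adjusted p = 0.0813) and miR-19b-3p at -0.99 (adjusted p = 0.0963), each still called. The correction took miR-92a-3p to 0.33 (adjusted p = 0.301) and out of the called set, and brought miR-363-3p in at 1.02 (adjusted p = 0.0398). miR-19a-3p changed sign, to 0.22. The arm ratio of miR-18a changed by -1.88 with the same correction (adjusted p = 0.00651), a fit chosen after the data were seen.

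**Figure D4:**
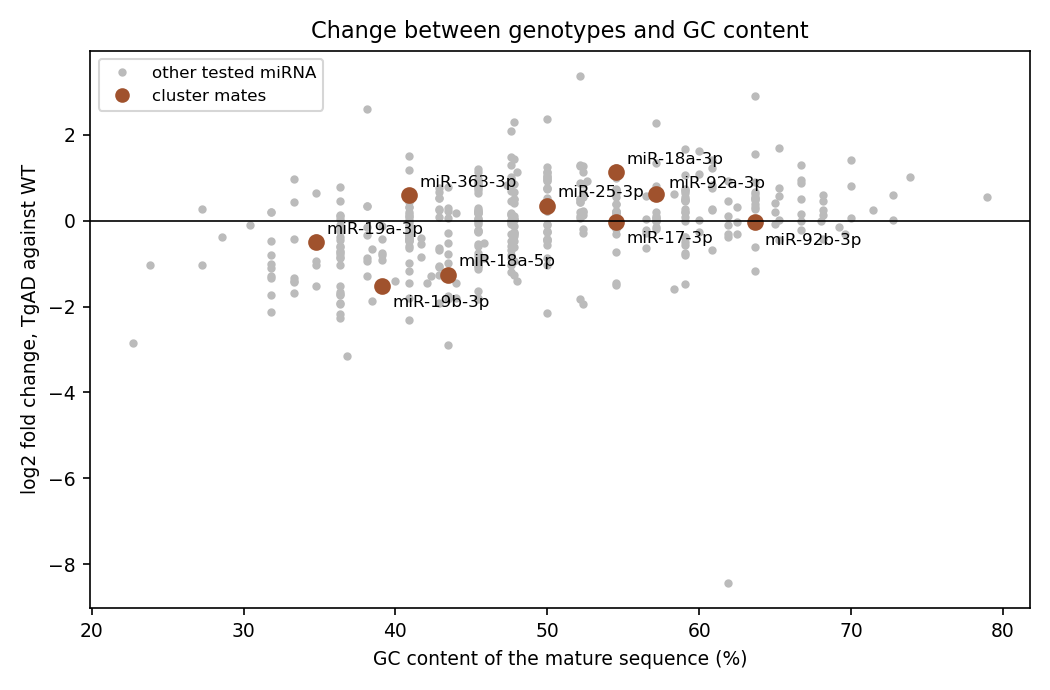
log2 fold change of TgAD against WT by the GC content (percent) of the mature sequence for the 441 tested miRNA with a sequence, the 9 members in colour and named. Values are lower at low GC content, and the members lie among other miRNA of like GC content.

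Across settings, the members differed in how far their values held. Over the settings of the count tables with all libraries, the log2 fold change of miR-18a-5p ran from -1.49 to -0.99, that of miR-19b-3p from -1.77 to -0.99 and that of miR-18a-3p from 0.83 to 1.13, all called. That of miR-92a-3p ran from 0.33 to 0.61 and was mostly not called. With the reads of the normalized table and its columns taken by name, edgeR's quasi-likelihood test called 0 of 480 miRNA, with 54 at an unadjusted p under 0.05. Of the members, 2 had such a p and miR-18a-5p stood at -1.63 (adjusted p = 0.430).

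**Figure D5:**
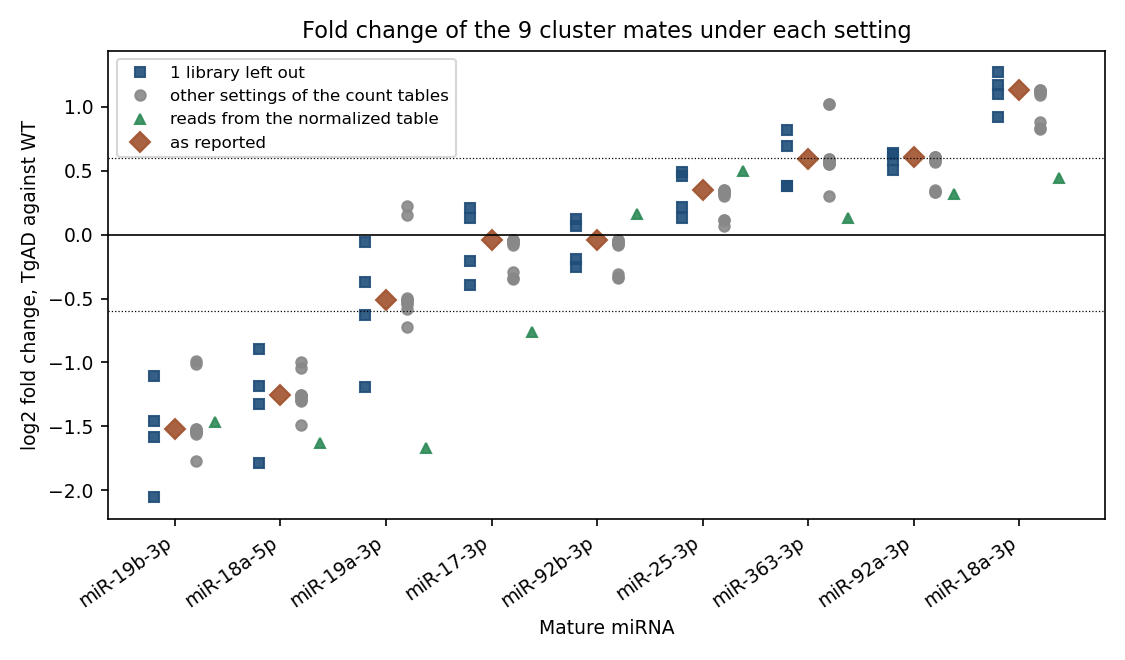
log2 fold change of TgAD against WT of the 9 members as reported (diamonds), with 1 library left out (squares), under the other settings of the count tables (circles) and from the reads of the normalized table (triangles), with the 0.6 cutoffs dotted. miR-18a-5p and miR-19b-3p stay below 0 in all of these. miR-18a-3p and miR-92a-3p stay above it, as do miR-25-3p and miR-363-3p, which were not called as reported. miR-19a-3p, miR-17-3p and miR-92b-3p fall on both sides of 0.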

How the data were processed

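Small RNA of 2 WT and 2 TgAD cultures was sequenced with 50 bp reads (single-end per the study's methods, paired-end per the labels). The authors mapped adapter-trimmed reads to GRCm38 without mismatch (Bowtie2) and HTSeq-count assigned them to the mature miRNA of miRBase 22.1, and the deposited counts are whole reads without normalization. Handling of reads with several placements is not given in the sources used here. The authors also deposited 1 table of normalized values, a signal equal to each library's counts over its size factor. Of its values, 100% gave whole reads (tolerance 0.01 reads), which served for the check of labels and 1 alternative.

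Groups came from the labels. Counts were normalized by TMM, filtered by filterByExpr and tested with edgeR 4.0.16 (quasi-likelihood, genotype only, Benjamini-Hochberg over 496 miRNA) in R 4.3.3. The standard error is the size of the log2 fold change over the square root of F. Arm ratios were fitted over 138 hairpins with library as a block. Depth, between 2070204 and 4811010 reads, limits low arms. The floors cover counting error only, while the 2 SE intervals also take in the spread between libraries. Alternatives used limma 3.58.1, DESeq2 1.42.0 (at least 10 reads over the 4 libraries), RLE or total-count scaling, other filters, the robust option, a replicate block, a GC correction (loess span 0.75) and leaving out each library, where a lone library is assumed to vary like the others. Procedures were tested on simulated data. Tables and figures used Python 3.11.15, pandas 2.3.3, scipy 1.17.1 and matplotlib 3.10.9.

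The rule for named miRNA was all 9 members, with listed opposite arms, guides of the miR-17 seed, their opposite arms, seed relatives and cell type markers given by counts or where a result turns on them. The members and lists were chosen with earlier results of these data known.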

Additional observations from a re-analysis of the deposited data

How the results depend on the processing

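Over the 4 fits that left out 1 library, log2 fold changes ran from -1.79 to -0.89 for miR-18a-5p, 0.92 to 1.27 for miR-18a-3p, -2.06 to -1.11 for miR-19b-3p, 0.51 to 0.64 for miR-92a-3p, -1.19 to -0.057 for miR-19a-3p, 0.13 to 0.49 for miR-25-3p and 0.38 to 0.82 for miR-363-3p. Those of miR-17-3p (-0.39 to 0.21) and miR-92b-3p (-0.25 to 0.12) took both signs, at 0.13 and 0.21, and at 0.12 and 0.07. Between 2 and 3 members were called, between 118 and 143 of all tested miRNA, and between 36 and 56 hairpins by arm ratio. Arm ratio changes ran from -2.71 to -2.16 for miR-18a, -1.90 to -0.86 for miR-363, -0.97 to -0.44 for miR-25, -0.17 to 0.28 for miR-92b (below 0 at -0.17 and -0.03) and -0.64 to 0.27 for miR-17. The arm ratio count of 36 came without TgAD 2.

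miR-92a-3p fell short of the cutoffs with total counts (0.35), total counts without miR-99a-5p (0.59), no filter (0.57), at least 10 reads in every library (0.59), DESeq2 (0.58) and the GC correction (0.33, also 0.33 with the replicate block). miR-19a-3p turned to 0.22 with the GC correction and to 0.16 with the replicate block and GC correction, and miR-363-3p passed at 1.02 in both. At the stringent cutoffs 0 members passed in the fit as reported, 2 with total counts, 2 without a filter, 2 with the replicate block and GC correction, 1 without WT 2 and 1 by DESeq2, while the share of all tested miRNA went from 4.44% to 17.3%, 8.58%, 15.3%, 10.0% and 9.67%. Without a filter the arm ratio of miR-363 was -1.42 and no longer called, and with the GC correction, chosen after seeing the data, that of miR-17 was 0.033. The cause was not tested.

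Whether same-numbered libraries were paired is not given in the sources used here. Their deviations correlated at 0.216 over 496 miRNA, which with 2 pairs cannot decide it. With the replicate block 188 miRNA passed, the members called were again 4, and the arm ratio of miR-25 was called at -0.71. At the stringent cutoffs the block raised the count from 22 to 102 miRNA and from 0 to 3 members.

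From the reads of the normalized table, 0 miRNA and 0 members were called, with miR-18a-5p at -1.63, miR-18a-3p at 0.45, miR-19b-3p at -1.47, miR-92a-3p at 0.32, miR-92b-3p at 0.16, miR-19a-3p at -1.67, miR-17-3p at -0.76, miR-25-3p at 0.50 and miR-363-3p at 0.13. There the library labelled TgAD 1 counts as WT. At 2 libraries per genotype and 19 to 52 reads for miR-19b-3p, depth and replication limit the low arms.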

Other observations

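The last column of the normalized table, named for a TgAD library, holds reads of a library that matches none of the 4 count tables (1926952 reads over the listed miRNA). In it miR-18a-5p had 116 reads and miR-18a-3p 49, fewer 5p reads for each 3p read than in any library of the count tables. The guides of the miR-25/92 seed had 4874 (miR-92a-3p), 1687 (miR-92b-3p), 5712 (miR-25-3p) and 31 reads (miR-363-3p). The miR-19 pair had 25 (miR-19a-3p) and 7 reads (miR-19b-3p), and miR-17-3p had 72. It entered no comparison other than the fit on the normalized table.

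Besides miR-18a, the hairpins with 1 arm called higher and the other lower were miR-195a, miR-345, miR-369, miR-377 and miR-708, named after their values were seen. In the clusters described, 2 hairpins of miR-17-seed guides also passed the cutoffs for the arm ratio: log2(5p/3p) fell by 2.17 for miR-106b (SE 0.395, adjusted p = 0.00978, edgeR's quasi-likelihood test) and rose by 1.06 for miR-20a (SE 0.294, adjusted p = 0.0366). These were -2.73 and 1.25 without the library labelled TgAD 1, both called. That of miR-93 changed by -0.25 (adjusted p = 0.523).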
